A study of Mus musculus with 24 samples.

Results

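The 34 genes described here drive and mark the mitotic cell cycle. They were taken by symbol, and each symbol was present in both deposited count tables, out of 46093 symbols per table. The set holds the D-type and E-type cyclins with Cdk4 and Cdk2, the CDK inhibitors Cdkn1a and Cdkn1b, the replication licensing genes Mcm2 to Mcm7 and Gmnn, and the DNA synthesis genes Pcna, Rrm1, Rrm2 and Tyms. It also holds the mitotic cyclins and kinases, the spindle checkpoint genes, the proliferation markers Mki67 and Top2a, and the transcription factors E2f1 and Foxm1. RNA was sequenced from livers of C57BL/6 mice, either Cyp2b-null (lacking Cyp2b9, Cyp2b10 and Cyp2b13) or wild type (WT). Mice received a high-fat diet with 60% fat (HFD) for 10 weeks, or normal chow (ND). Males and females each gave 4 groups of 3 libraries: Cyp2b-null on HFD, WT on HFD, Cyp2b-null on ND and WT on ND. The series asks what the Cyp2b enzymes do in diet-induced obesity. The male livers went through RNeasy Plus Universal extraction and TruSeq Total RNA libraries, and the female livers through Trizol and NEB Next Ultra RNA libraries. Kit and sex therefore cannot be told apart, and each sex was tested alone. The labels give no age and do not state that each library is its own animal, so a p-value here reflects spread among libraries, which may be technical.

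Cell division is driven by cyclin-dependent kinases, which act only when bound to a cyclin. D-type cyclins with Cdk4 relieve the block that retinoblastoma proteins place on E2F factors, E-type cyclins with Cdk2 start S phase, and A- and B-type cyclins with Cdk1 carry the cell through mitosis. Hepatocytes of the adult liver are mostly quiescent and re-enter the cycle after injury or partial hepatectomy, and many of them are polyploid, so DNA replication in liver is not always followed by cytokinesis.

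Library totals were 2005120 to 2661836 counts in females and 8282510 to 20176050 in males. In females the targeted gene Cyp2b13 had 0 counts in every Cyp2b-null library, against 565 to 1138 in WT libraries. In males the targeted genes did not agree on the labels. On ND, Cyp2b10 had 4, 15 and 15 counts in libraries labelled Cyp2b-null, against 97, 34 and 30 in those labelled WT, but Cyp2b9 went the other way, with 24, 29 and 59 counts in those labelled Cyp2b-null and 1, 2 and 4 in those labelled WT. On HFD both overlapped: Cyp2b10 had 5 to 26 counts in the label Cyp2b-null and 7 to 15 in the label WT, and Cyp2b9 had 19 to 85 counts in the label Cyp2b-null and 48 to 797 in the label WT. Cyp2b13 overlapped on both diets, with 7 to 89 counts in the label Cyp2b-null and 23 to 85 in the label WT. The male genotype groups below are therefore groups by label. The male library labelled Cyp2b-null ND 1 stood apart: 32% of its counts were mitochondrial, against at most 7.76% in the other 11, and its median Spearman correlation with them was 0.8, against 0.965 or more in the other male libraries. The main male results are given with and without it. Among females, WT ND 1 had 14% mitochondrial counts, against at most 8.54% in the others. Its median Spearman correlation was 0.883, against 0.915 or more in the other females, and it stayed in the main female fits. All 6 hepatocyte markers, among them Alb and Ttr, were above 0 in all 24 libraries.

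The cycle genes were read at very different levels, and those of mitosis were the lowest. Per kilobase of exon, averaged over the 12 libraries of a sex, Ccnd1, the G1 cyclin that responds to growth signals, had the highest level in females at 31.3 CPM per kb, where CPM is the count per 1000000 counts of the library after edgeR's TMM scaling. Its partner kinase Cdk4 came next in females at 8.9 CPM per kb, and in males Cdk4 at 9.05 CPM per kb and Ccnd1 at 8.98 CPM per kb were the highest. Pcna, the sliding clamp of DNA polymerase, and Gmnn, the inhibitor of replication licensing, followed them, at 5.22 and 6.83 CPM per kb in females and 7.04 and 5.24 CPM per kb in males. At the other end, in females, was Ccnb1, the B-type cyclin that activates Cdk1 at mitosis, at 0.0412 CPM per kb (0.064 CPM per kb in males). In males it was Bub1, a kinase of the spindle checkpoint, at 0.0298 CPM per kb. The proliferation markers Mki67 and Top2a together gave 1 to 12 counts per female library and 24 to 111 counts per male library. In bulk RNA, fewer cycling cells and less RNA per cycling cell cannot be told apart.

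In females 18 of the 34 genes were too low to be tested, none of them above 11 counts in any library: Ccne1, Cdkn1a, Mcm4, Mcm5, Ccnb1, Ccnb2, Cdk1, Plk1, Aurka, Aurkb, Bub1, Bub1b, Cdc20, Birc5, Mki67, Top2a, E2f1 and Foxm1. The female data are therefore silent on most of mitosis, and the 16 genes tested lie mainly in G1 and S phase. In males, at the higher depth, only 6 genes were too low: Cdkn1a, Ccnb1, Plk1, Aurka, Aurkb and Bub1, none above 19 counts. The other 28 were tested. Cdkn1a, which encodes the CDK inhibitor p21, had 3 to 18 counts in each male library. Some tested genes were still too low to judge in single comparisons, with under 30 counts in each of the 2 groups. In females these were Mcm2 and Mcm3 for genotype on ND, Rrm2 for genotype on HFD, and Mcm2, Mcm3, Mcm6 and Rrm2 for diet in WT. In males they were Cdc20 and Foxm1 for the label on HFD, Foxm1 for diet in the label WT and Cdc20 for diet in the label Cyp2b-null. Without the library that stood apart, Cdkn1a and Foxm1 were too low in each of the 4 male comparisons of 2 groups, Cdc20 in the same 2 as before, and Ccna2 for the label on ND.

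**Figure D1:**
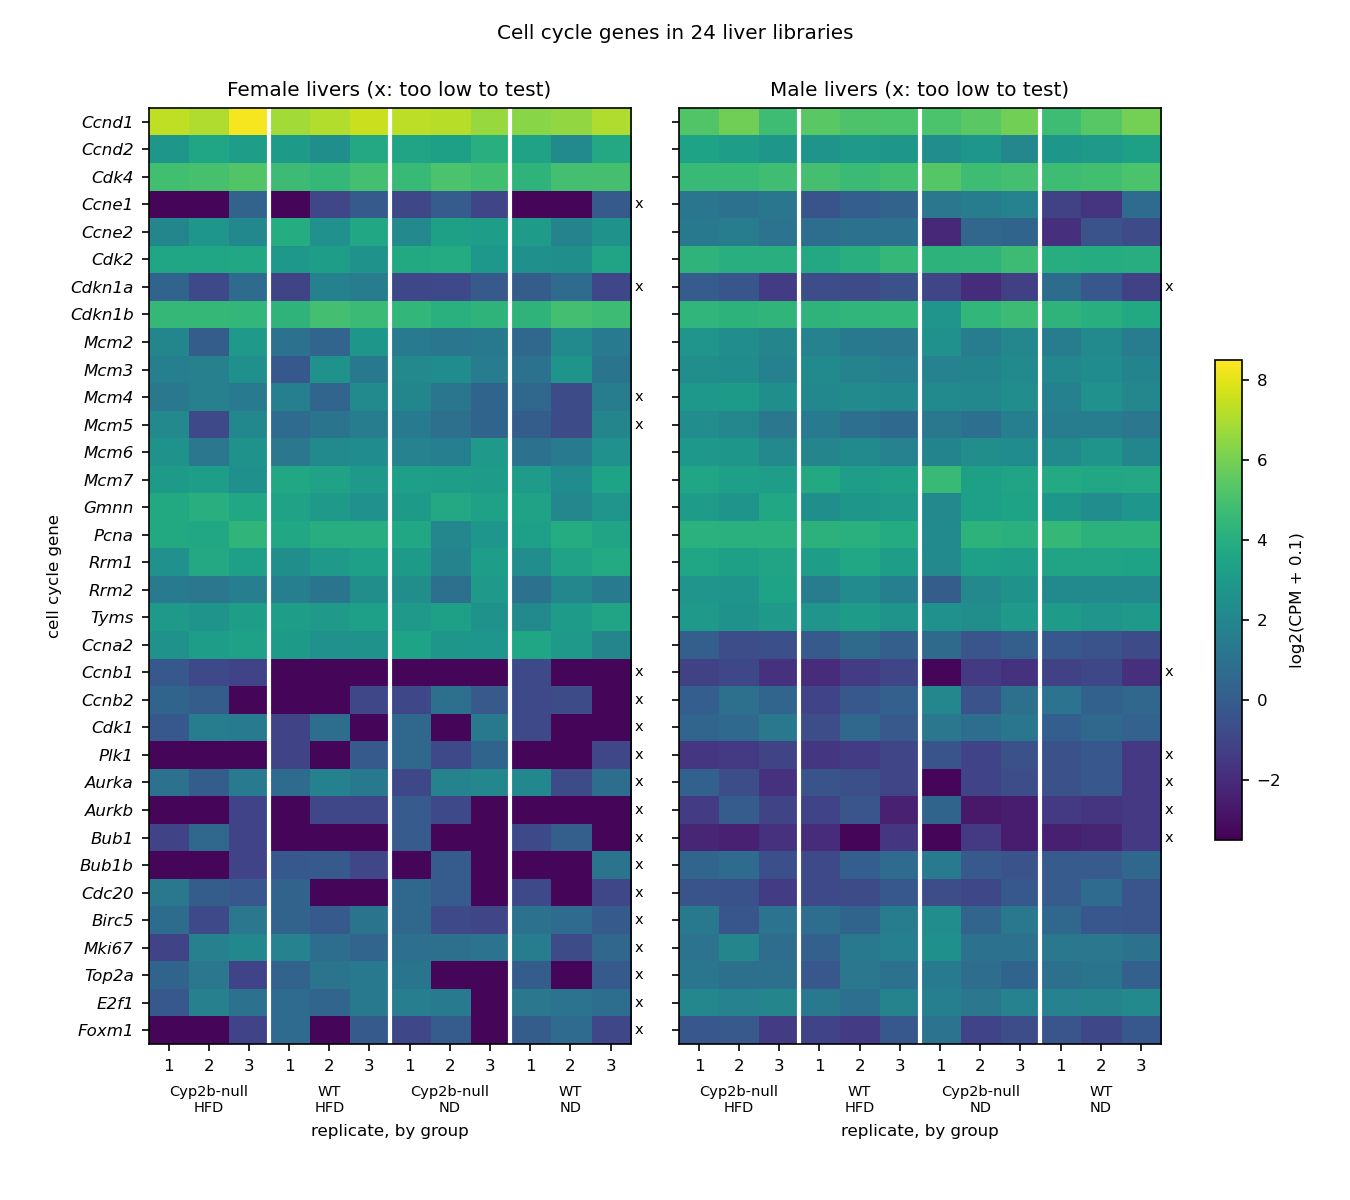
Heat map of log2(CPM + 0.1) for the 34 cell cycle genes (rows, grouped by role) in the 24 liver libraries (columns, by sex, genotype and diet); an x marks genes too low to be tested in that sex. Ccnd1 and Cdk4 are the brightest rows and the mitotic genes the darkest, and in males the library labelled Cyp2b-null ND 1 departs from its neighbours in many rows.

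None of the 34 genes passed the test (edgeR quasi-likelihood, Benjamini-Hochberg adjusted p under 0.05 over all genes tested) in any of the 10 comparisons, 5 per sex, with all libraries. The comparisons were Cyp2b-null against WT on HFD and on ND, HFD against ND in Cyp2b-null and in WT, and the difference between those effects (the interaction). They share libraries, so agreement between them is not independent. Few genes of any kind passed: in females 0.0169% of the 11830 genes tested for genotype on HFD, 0.127% for genotype on ND, 0% for diet in Cyp2b-null, 0.0169% for diet in WT and 0% for the interaction. In males, of 14873 genes, 0.0134% passed for genotype on ND and 0% in each of the other 4 comparisons. The typical 95% interval of a cycle gene reached 0.81 to 0.85 on either side of its log2 difference (median over the genes tested, genotype and diet comparisons), and 1.15 to 1.16 for the interactions.

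In females on HFD the G1 and licensing genes Cdk2 and Gmnn were higher in every Cyp2b-null library than in any WT library, and the E-type cyclin Ccne2 had lower values. Cdk2, the partner kinase of the E-type cyclins, had 12.1, 12 and 12.8 CPM in Cyp2b-null females, against 7.34, 9.16 and 6.18 CPM in WT females (log2 difference 0.70 ± 0.36, SE). Gmnn had 13.7, 16.2 and 12.4 CPM in Cyp2b-null females, against 10.4, 7.91 and 5.77 CPM in WT females. Its log2 difference was 0.80 ± 0.35 (95% interval 0.04 to 1.56), with an unadjusted edgeR p of 0.0393 and an adjusted p of 1. Both genes thus kept their groups apart, but neither passed the correction over all genes. Ccne2, the second E-type cyclin, had 3.91, 6.94 and 4.15 CPM in Cyp2b-null females, against 15.1, 5.83 and 12.4 CPM in WT females, so that 1 WT library fell among the Cyp2b-null values. The log2 difference of Ccne2 was −1.16 ± 0.46 (−2.13 to −0.19; unadjusted edgeR p 0.0224, adjusted p 1). Ccnd1 at 0.51 ± 0.31, Cdk4 at 0.34 ± 0.23 and Mcm7 at −0.43 ± 0.35 were the next by p. Ccnd1 had 165, 136 and 320 CPM in Cyp2b-null females, against 115, 138 and 183 CPM in WT females. Summed markers of lymphocytes (10.6, 23.6 and 24.9 CPM in Cyp2b-null, against 25.5, 27.5 and 34.6 CPM in WT) and of stellate cells (350, 363 and 309 CPM in Cyp2b-null, against 395, 476 and 438 CPM in WT) also kept these groups apart, and their part in the cycle gene values was not tested. Markers of hepatocytes, Kupffer cells and macrophages, neutrophils, endothelium, bile duct cells and erythroid cells overlapped between these groups. At an unadjusted p under 0.05, 12.5% of the tested cycle genes (2 of 16) were past the line, against 2.44% of all genes, and 12.5% did not overlap between the groups, against 6.97% of all genes.

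On ND the female genotypes overlapped for all 16 genes, against 11.3% of all genes that did not overlap, and none of the 16 had an unadjusted p under 0.05, against 6.33% of all genes. The 6 with the smallest p were Cdk2 at a log2 difference of 0.66 ± 0.37, Pcna at −0.61 ± 0.37, Cdkn1b at −0.38 ± 0.23, Gmnn at 0.56 ± 0.37, Rrm2 at 0.82 ± 0.58 and Ccnd1 at 0.38 ± 0.31 (Cyp2b-null minus WT, SE). Of the genes named on HFD, which was measured in other libraries, Cdk2, Gmnn and Ccnd1 had the same sign here. Cdk4 too had the higher mean in Cyp2b-null, at 29.2 against 27.1 CPM. Ccne2, first by p on HFD, and Mcm7 went the opposite way. Their means were 7.71 against 6.04 CPM for Ccne2 and 9.01 against 8.24 CPM for Mcm7 (Cyp2b-null against WT on ND). The share of all genes with the same sign on both diets was not computed. Cdk2 had 13.9, 14.8 and 7.28 CPM in Cyp2b-null females, against 5.56, 5.49 and 11.3 CPM in WT females on ND, with 1 library of each group on the other's side.

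Between diets in females Pcna had the smallest p, in Cyp2b-null livers. Pcna had 13.7, 13.0 and 20.4 CPM in Cyp2b-null females on HFD, against 12.6, 4.04 and 6.87 CPM in Cyp2b-null females on ND. The groups did not overlap, and the log2 difference was 1.0 ± 0.36 (0.23 to 1.77; unadjusted edgeR p 0.0144, adjusted p 0.963). Markers of other cells kept the same groups apart: Kupffer cell and macrophage markers summed to 467, 452 and 781 CPM on HFD, against 366, 408 and 224 CPM on ND, endothelial markers to 160, 157 and 139 CPM, against 176, 183 and 206 CPM on ND, and stellate cell markers to 350, 363 and 309 CPM, against 418, 368 and 395 CPM on ND. Markers of hepatocytes, lymphocytes, neutrophils, bile duct cells and erythroid cells overlapped. The part of these cell types in the Pcna values was not tested. In WT females Pcna had 12.4, 15.8 and 15.7 CPM on HFD, against 9.72, 15.0 and 11.3 CPM on ND, and the groups overlapped. The interaction for Pcna was 0.71 ± 0.50 (−0.36 to 1.79), so the diet effect was not shown to differ between genotypes. Cdkn1b, which encodes the CDK inhibitor p27, also kept the Cyp2b-null diet groups apart, at 22.3, 22.2 and 21.9 CPM on HFD against 21.7, 17.1 and 19.4 CPM on ND. The other genes with the smallest p in Cyp2b-null females were Ccnd1 at 0.62 ± 0.31, Rrm2 at −0.86 ± 0.57, Ccne2 at −0.63 ± 0.47, Gmnn at 0.41 ± 0.35 and Mcm2 at 0.83 ± 0.74 (HFD minus ND). Ccnd1 had 165, 136 and 320 CPM on HFD, against 156, 148 and 99.5 CPM on ND, so Cyp2b-null HFD 3 stood well above the rest. At an unadjusted p under 0.05, 1 of 16 genes (6.25%) was past the line, against 4.8% of all genes, and 12.5% did not overlap, against 11.2% of all genes.

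In WT females no cycle gene had an unadjusted p under 0.05 between diets, against 3.48% of all genes, and none kept its groups apart, against 7.86% of all genes. Ccne2 came first by p, at 15.1, 5.83 and 12.4 CPM on HFD against 8.34, 3.49 and 6.30 CPM on ND (log2 difference 0.87 ± 0.45). The groups overlapped, but same-numbered libraries deviated together in this comparison, and Ccne2 was higher on HFD in each of the 3 numbered pairs. So were Ccnd1 and Pcna, and the share of all genes with the same sign in all 3 pairs was not computed. Hepatocyte markers were lower on HFD in every WT library (81500, 80800 and 76900 CPM on HFD, against 88600, 94400 and 91100 CPM on ND) and lymphocyte markers higher (25.5, 27.5 and 34.6 CPM on HFD, against 24.5, 7.99 and 22.3 CPM on ND), and their part was not tested. Markers of Kupffer cells and macrophages, neutrophils, endothelium, stellate cells, bile duct cells and erythroid cells overlapped between these diets. By p, Ccnd1 followed at 0.49 ± 0.31, with Rrm1 at −0.42 ± 0.45, Mcm7 at 0.32 ± 0.35, Pcna at 0.28 ± 0.35 and Rrm2 at 0.34 ± 0.59, the last on fewer than 30 counts per group. Ccne2 thus had opposite signs of the diet difference in the 2 genotypes, and its interaction was −1.50 ± 0.65 (−2.89 to −0.11; unadjusted edgeR p 0.0358, adjusted p 1). It was the 1 gene of 16 (6.25%) with an unadjusted interaction p under 0.05, against 2.89% of all genes. The other interactions with the smallest p were Rrm2 at −1.19 ± 0.82, Rrm1 at 0.84 ± 0.64, Mcm7 at −0.55 ± 0.49 and Cdk4 at 0.23 ± 0.33.

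In males on HFD the replication genes Mcm2, Mcm4, Mcm5, Mcm6 and Rrm2 had higher values in the libraries labelled Cyp2b-null than in those labelled WT. Mcm2 to Mcm7 form the ring-shaped helicase that is loaded at origins in G1 and unwinds DNA in S phase, and Rrm2 is the small subunit of ribonucleotide reductase, which makes deoxynucleotides. Mcm4 has no entry in the promoter table. The promoters of the other 4 are shown because these genes were among the 5 with the smallest p, and because E2F factors and the CCAAT-binding factor NF-Y are textbook regulators of such promoters. Each line gives the 250 bases before the gene's start on the coding strand, from RefSeq on GRCm38.p6. Capitals mark an E2F 8-mer (TTTCCCGC, TTTCGCGC, TTTGCCGC or TTTGGCGC) or CCAAT, each on either strand.
Mcm2: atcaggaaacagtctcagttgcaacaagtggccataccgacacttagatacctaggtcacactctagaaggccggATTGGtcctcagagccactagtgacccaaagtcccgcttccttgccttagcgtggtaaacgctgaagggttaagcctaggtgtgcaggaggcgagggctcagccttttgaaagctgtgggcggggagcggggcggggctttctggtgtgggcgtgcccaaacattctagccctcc
Mcm5: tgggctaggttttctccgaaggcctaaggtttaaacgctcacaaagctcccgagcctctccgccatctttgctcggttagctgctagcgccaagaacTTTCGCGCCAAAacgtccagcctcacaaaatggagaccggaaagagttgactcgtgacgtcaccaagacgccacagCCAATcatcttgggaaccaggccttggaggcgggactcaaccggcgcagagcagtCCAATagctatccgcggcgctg
Mcm6: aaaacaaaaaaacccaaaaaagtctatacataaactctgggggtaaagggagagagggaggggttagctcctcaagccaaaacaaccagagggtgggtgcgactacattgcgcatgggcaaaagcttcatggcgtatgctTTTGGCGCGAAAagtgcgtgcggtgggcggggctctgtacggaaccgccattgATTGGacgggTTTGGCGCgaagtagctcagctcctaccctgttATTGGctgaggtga
Rrm2: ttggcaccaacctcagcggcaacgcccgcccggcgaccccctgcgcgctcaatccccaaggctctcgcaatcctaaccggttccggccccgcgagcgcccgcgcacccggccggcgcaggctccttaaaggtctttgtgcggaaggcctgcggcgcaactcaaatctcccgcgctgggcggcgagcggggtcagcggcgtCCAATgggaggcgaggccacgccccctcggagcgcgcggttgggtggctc
They lie at chr6:88898781-88899030 (minus strand) for Mcm2, chr8:75109259-75109508 (plus) for Mcm5, chr1:128359706-128359955 (minus) for Mcm6 and chr12:24708004-24708253 (plus) for Rrm2. All 4 hold CCAAT, which 33.8% of the 32851 mouse promoters of this length hold. Mcm5 holds 2 overlapping E2F 8-mers and Mcm6 holds 3, of which the first 2 overlap, whereas 1.86% of all promoters hold any. No such 8-mer was found in the Mcm2 and Rrm2 windows. Of the 34 cycle genes, 26 matched a promoter entry, and 5 of these held an E2F 8-mer (Cdk2, Mcm5, Mcm6, Mcm7 and Cdk1), 20 held CCAAT and 6 held the CHR motif TTTGAA, a site known from late cell cycle promoters that 16% of all promoters hold. The palindrome CACGTG, the E-box that clock factors bind, is held by 6.02% of all promoters. Among the matched cycle genes only Cdk4 and Tyms held it, and none of the 4 shown did. A match is a run of letters in the window and does not show binding.

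Mcm2 had 6.70, 5.17 and 3.85 CPM in the HFD males labelled Cyp2b-null, against 3.39, 2.43 and 2.31 CPM in HFD males labelled WT. The groups did not overlap, and the log2 difference was 0.96 ± 0.35 (0.20 to 1.72; unadjusted edgeR p 0.0177). Mcm4 had 7.38, 8.11 and 5.39 CPM in the males labelled Cyp2b-null, against 4.14, 4.57 and 4.17 CPM in those labelled WT. These groups were also apart, with a log2 difference of 0.70 ± 0.27 (0.11 to 1.29; unadjusted edgeR p 0.0243). Mcm5 had 5.12, 4.01 and 2.31 CPM in the males labelled Cyp2b-null, against 2.56, 1.75 and 1.40 CPM in those labelled WT. Here 1 library labelled Cyp2b-null lay below the highest WT library, and the log2 difference was 1.02 ± 0.38 (0.19 to 1.84; unadjusted edgeR p 0.0198). Mcm6 overlapped in the same way, with 7.38, 7.13 and 4.33 CPM in the label Cyp2b-null against 3.76, 4.67 and 3.44 CPM in the label WT, and a log2 difference of 0.68 ± 0.30 (0.02 to 1.34; unadjusted edgeR p 0.0457). Rrm2 had 6.59, 6.41 and 10.8 CPM in the males labelled Cyp2b-null, against 2.86, 4.86 and 3.08 CPM in those labelled WT. Its groups did not overlap, and the log2 difference was 1.14 ± 0.48 (0.09 to 2.20; unadjusted edgeR p 0.0359). The adjusted edgeR p was 1 for each of these 5 genes.

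The remaining subunits of the helicase had smaller differences; whether they differ from the others was not tested. Mcm3 had 5.29, 4.99 and 3.27 CPM in HFD males labelled Cyp2b-null, against 4.44, 3.60 and 2.99 CPM in those labelled WT (log2 difference 0.31 ± 0.29). Mcm7 had 11.5, 9.44 and 8.95 CPM in the label Cyp2b-null, against 13.6, 9.34 and 9.74 CPM in the label WT (−0.12 ± 0.32). Both overlapped between labels. Summed over the 6 subunits, the level was 43.4, 38.8 and 28.1 CPM in males labelled Cyp2b-null and 31.8, 26.4 and 24 CPM in those labelled WT, so the lowest library labelled Cyp2b-null lay inside the range of the label WT. The other DNA synthesis genes were near 0 difference: Pcna at 0.06 ± 0.38, Rrm1 at 0.05 ± 0.28 and Tyms, thymidylate synthase, at 0.01 ± 0.25 on the log2 scale. Without the library that stood apart, these values were 0.31 ± 0.26 for Mcm3, −0.12 ± 0.19 for Mcm7, 0.06 ± 0.15 for Pcna, 0.06 ± 0.18 for Rrm1 and 0.01 ± 0.22 for Tyms. Mki67, which marks cycling cells at all phases, had 2.03, 3.74 and 1.64 CPM in males labelled Cyp2b-null, against 1.05, 2.43 and 3.08 CPM in those labelled WT (0.16 ± 0.51), and no mitotic gene kept its groups apart.

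Of the 28 cycle genes tested in HFD males, 5 (17.9%) had an unadjusted p under 0.05, against 2.12% of all genes. All 5 were higher in the label Cyp2b-null, a direction that 1.41% of all genes took at that p. Groups were apart for 5 genes (17.9%), Ccne1, Ccne2, Mcm2, Mcm4 and Rrm2, all higher, against 8.27% of all genes apart in either direction and 4.67% apart and higher. The median log2 difference was 0.26 over the 28 genes and −0.01 over all genes tested. These shares cover the genes that passed the filter on low counts, not all 34. The library labelled Cyp2b-null ND 1 is in neither group, but leaving it out changes the spread shared by all groups and the genes that pass the filter. Without it 7 of 29 genes (24.1%) had an unadjusted p under 0.05, against 5.17% of all genes, and 3.06% of all genes did so with a higher level. Groups were apart for 5 of 29 (17.2%), against 8.3% of all genes. Rrm2 then had a log2 difference of 1.15 ± 0.28 (unadjusted edgeR p 0.00117, adjusted p 0.29), Mcm2 of 0.97 ± 0.30, Mcm5 of 1.03 ± 0.36, Mcm4 of 0.70 ± 0.25 and Mcm6 of 0.68 ± 0.27. No gene of any kind passed the adjusted test in either fit (0% of 14873 genes and 0% of 15139 genes).

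Cell type markers also differed among these 6 libraries. Summed over 10 lymphocyte markers, the males labelled Cyp2b-null on HFD had 29.4, 29.5 and 10 CPM, against 13.2, 22.3 and 21.6 CPM in those labelled WT. Summed over 11 Kupffer cell and macrophage markers, the males labelled Cyp2b-null had 391, 275 and 213 CPM, against 185, 253 and 313 CPM in those labelled WT. Hepatocyte markers summed to 64300, 73900 and 107000 CPM in the males labelled Cyp2b-null and 93400, 99800 and 83200 CPM in those labelled WT. The 2 libraries labelled Cyp2b-null with the higher Mcm sums thus had the highest lymphocyte marker sums and the lowest hepatocyte marker sums of the 6. Rrm2 had the opposite order, with 6.59, 6.41 and 10.8 CPM in the libraries labelled Cyp2b-null. Its highest value was in the library with 10 CPM of lymphocyte markers and 107000 CPM of hepatocyte markers. The part of these cells in the Mcm and Rrm2 values was not tested.

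**Figure D2:**
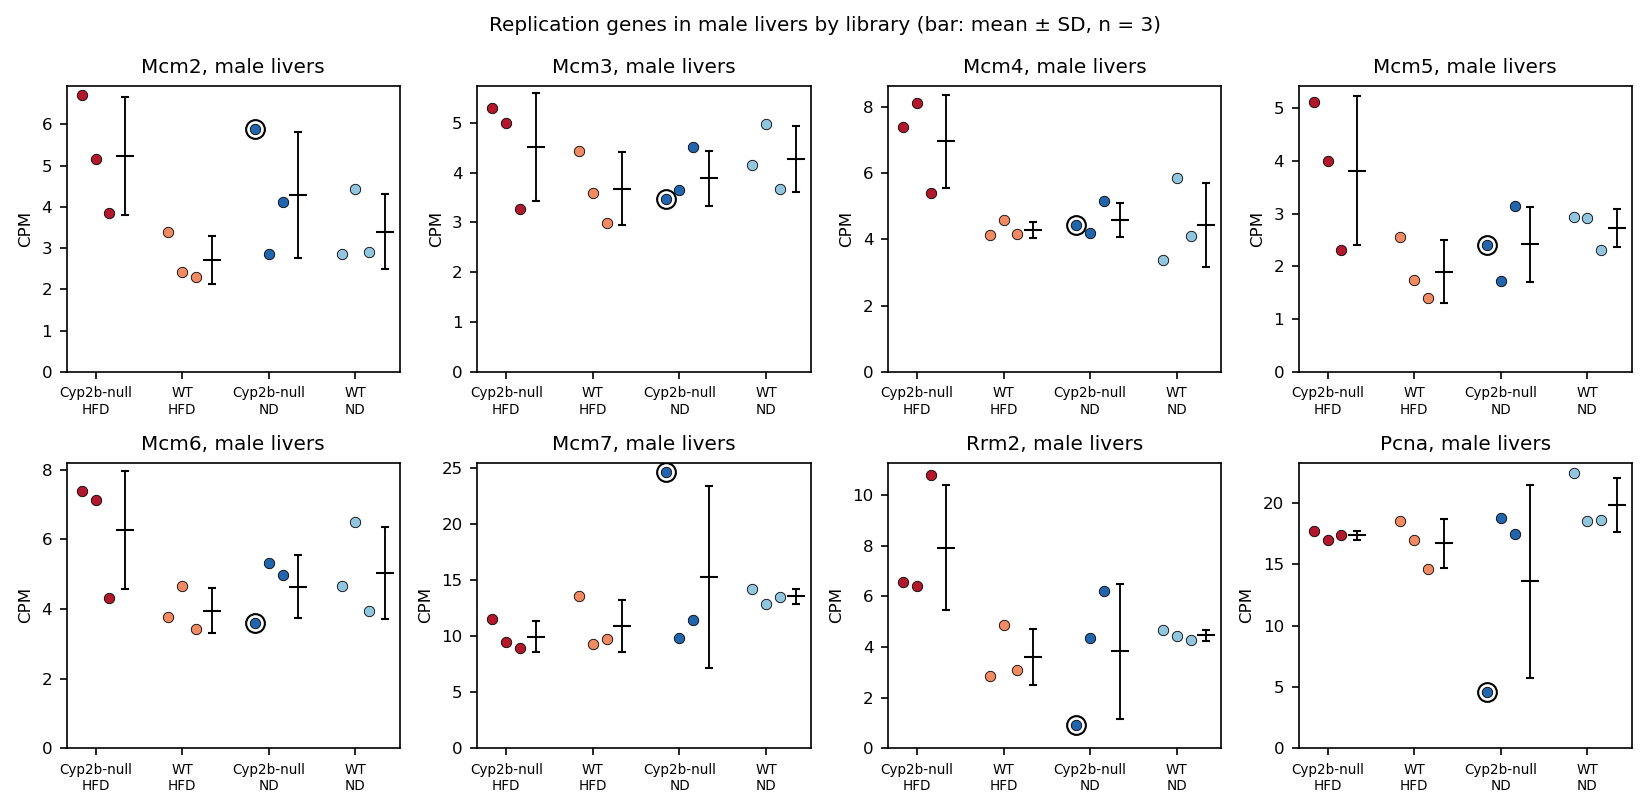
CPM of Mcm2 to Mcm7, Rrm2 and Pcna in each male liver library, with the label Cyp2b-null left of the label WT on each diet; points are libraries and bars are the mean ± SD of 3. On HFD, Mcm2, Mcm4 and Rrm2 keep the labels apart and Mcm3, Mcm7 and Pcna do not.

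On ND the largest male difference by label among the tested cycle genes was in Ccne1, the E-type cyclin that activates Cdk2 at the start of S phase (chr7:38097984-38107534, minus strand, GRCm38). Ccne1 had 2.27, 2.90 and 3.47 CPM in males labelled Cyp2b-null, against 0.346, 0.217 and 1.54 CPM in males labelled WT, from 17, 54 and 53 counts in the label Cyp2b-null and 4, 2 and 18 counts in the label WT. The groups did not overlap. The log2 difference was 2.0 ± 0.55 (0.80 to 3.21; unadjusted edgeR p 0.00349, adjusted p 0.193), and DESeq2, a second count model, called it at an adjusted p of 0.0291 with a log2 difference of 1.99 ± 0.57, where it called 2.53% of all genes. Without the library labelled Cyp2b-null ND 1 it was 2.12 ± 0.53 (adjusted edgeR p 0.0989), and leaving out WT ND 3, the highest WT library, gave 3.30.

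Ccne1 was also apart by label on HFD, in other libraries. It had 2.20, 1.87 and 2.21 CPM in males labelled Cyp2b-null, against 0.678, 0.973 and 1.13 CPM in males labelled WT (mean 2.09 ± 0.193 against 0.927 ± 0.231 CPM, SD, n = 3 each). The log2 difference was 1.16 ± 0.53 (unadjusted edgeR p 0.0504, adjusted p 1), or 1.15 ± 0.48 without the library that stood apart. All 6 male libraries labelled Cyp2b-null therefore lay above all 6 labelled WT. The share of all genes that kept the labels apart over both diets was not computed. The interaction was −0.85 ± 0.76 (−2.51 to 0.82), or −0.97 ± 0.72 without that library, so the 2 diets were not shown to differ. In females Ccne1 had 0 to 3 counts per library, too low to judge.

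The other male genes with small p on ND had smaller differences. Cdk2 had 19.3, 19.4 and 26.5 CPM in males labelled Cyp2b-null, against 15.5, 15.2 and 15.6 CPM in males labelled WT (log2 difference 0.50 ± 0.23). Cdk1, the mitotic kinase, had 2.27, 1.67 and 2.22 CPM in the label Cyp2b-null, against 0.951, 1.30 and 1.11 CPM in the label WT (0.86 ± 0.42). Ccnd2, a D-type cyclin, had 5.08, 6.88 and 4.12 CPM in the label Cyp2b-null, against 7.09, 7.90 and 9.74 CPM in the label WT (−0.62 ± 0.27). These 3 genes kept the labels apart, as did Rrm1 and E2f1, both lower in the label Cyp2b-null, Rrm1 at −0.51 ± 0.29. Birc5, which encodes survivin of the chromosomal passenger complex, had 5.08, 1.24 and 2.35 CPM in the label Cyp2b-null, against 1.30, 0.758 and 0.684 CPM in the label WT (1.60 ± 0.61), with its highest value in the library that stood apart. The adjusted edgeR p of Cdk2, Cdk1, Ccnd2, Rrm1 and Birc5 lay between 0.227 and 0.345.

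Without the library that stood apart, Birc5 was at 0.95 ± 0.55 with overlapping groups, Rrm1 at −0.24 ± 0.20, Cdk1 at 0.79 ± 0.43, Ccnd2 at −0.58 ± 0.27 and E2f1 at −0.41 ± 0.33 (−0.37 ± 0.31 with it). Some cell type markers separated the same labels. Those of Kupffer cells and macrophages, endothelium, stellate cells, bile duct cells and erythroid cells overlapped. Hepatocyte markers summed to 40200, 78900 and 80700 CPM in ND males labelled Cyp2b-null, against 108000, 118000 and 139000 CPM in those labelled WT. Lymphocyte markers summed to 87.8, 21.2 and 15 CPM in the label Cyp2b-null, against 14.1, 9.1 and 13.6 CPM in the label WT. Neutrophil markers were low in all, at 0.981 to 1.87 CPM in the label Cyp2b-null and 0.541 to 0.684 CPM in the label WT. The part of these cells in the values of Ccne1 and the other genes was not tested.

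On ND, 4 of 28 cycle genes (14.3%) had an unadjusted p under 0.05, against 18.6% of all genes, and 6 (21.4%) did not overlap, against 22.8% of all genes, so the shares lay near the background. The median log2 difference was 0.13 over the 28 genes and 0.06 over all genes. Without the library labelled Cyp2b-null ND 1 the median was −0.08 over 29 genes, 6 (20.7%) had an unadjusted p under 0.05 against 17.3% of all genes, 12 (41.4%) did not overlap against 40.1% of all genes, and 0.0462% of all genes passed the adjusted test. Ccne2 then had a log2 difference of 1.49 ± 0.46 (unadjusted edgeR p 0.00582, adjusted p 0.146), Cdk2 of 0.58 ± 0.22, Cdkn1b of 0.54 ± 0.18 and Gmnn of 0.69 ± 0.28. Cdkn1a entered the tested genes there at −1.86 ± 0.71, on fewer than 30 counts per group.

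**Figure D3:**
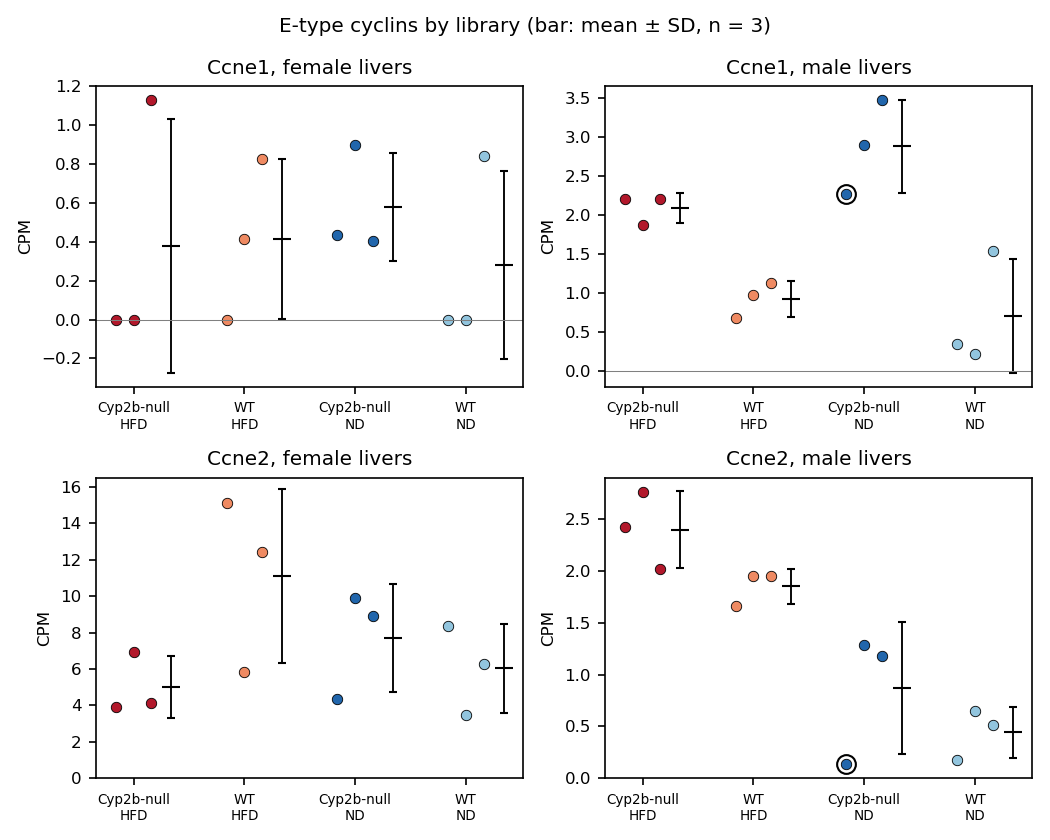
CPM of the E-type cyclins Ccne1 and Ccne2 in each liver library of both sexes, with Cyp2b-null left of WT on each diet; points are libraries, bars the mean ± SD of 3, and the ring marks the male library labelled Cyp2b-null ND 1. In males Ccne1 is higher in every library labelled Cyp2b-null, and Ccne2 is higher on HFD than on ND in both labels.

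The other E-type cyclin differed by diet in males. Ccne2 (chr4:11191351-11204779, plus strand, GRCm38) had 1.66, 1.95 and 1.95 CPM in males labelled WT on HFD, against 0.173, 0.650 and 0.513 CPM in males labelled WT on ND, from 22, 20 and 43 counts on HFD and 2, 6 and 6 counts on ND. The groups did not overlap, and the log2 difference was 2.06 ± 0.60 (0.75 to 3.37; unadjusted edgeR p 0.00502, adjusted p 0.506). Without the library labelled Cyp2b-null ND 1, which is in neither group but changes the shared spread and the genes tested, Ccne2 passed the test at 2.07 ± 0.41 (1.18 to 2.96; adjusted edgeR p 0.0384), where 0.72% of all genes passed. That was the only cycle gene called in the 5 male comparisons without that library. Hepatocyte markers were lower on HFD here, at 93400, 99800 and 83200 CPM against 108000, 118000 and 139000 CPM on ND, and neutrophil markers, near 0 in all, were at 0.753 to 1.65 CPM on HFD and 0.541 to 0.684 CPM on ND. Markers of Kupffer cells and macrophages, lymphocytes, endothelium, stellate cells, bile duct cells and erythroid cells overlapped. The part of these cell types in the Ccne2 values was not tested.

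In males labelled Cyp2b-null, Ccne2 had 2.42, 2.76 and 2.02 CPM on HFD, against 0.134, 1.29 and 1.18 CPM on ND. The groups were again apart, with a log2 difference of 1.36 ± 0.54 (unadjusted edgeR p 0.0269), or 0.96 ± 0.38 without the lowest library, which is the one that stood apart. All 6 male HFD libraries therefore exceeded all 6 male ND libraries. The share of all genes that kept the diets apart over both labels was not computed. The interaction was −0.70 ± 0.80 (−2.44 to 1.04), or −1.11 ± 0.57 without that library. In females, as given above, the Ccne2 diet difference had opposite signs in the 2 genotypes, and the difference between the sexes was not tested because kit and sex cannot be told apart.

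In males labelled WT, the genes next to Ccne2 by p between diets were Birc5 at a log2 difference of 1.04 ± 0.61, E2f1 at −0.51 ± 0.31, Ccna2 at 0.73 ± 0.45, Cdc20 at −0.78 ± 0.49 and Ccnb2 at −0.96 ± 0.62 (HFD minus ND). Without the library that stood apart Birc5 was at 1.06 ± 0.50, E2f1 at −0.50 ± 0.29, Ccna2 at 0.73 ± 0.43, Cdc20 at −0.76 ± 0.49 and Ccnb2 at −0.94 ± 0.50. Ccna2, the cyclin of S and G2 phase, and Ccnb2, a mitotic cyclin, kept the diets apart in opposite directions. Ccna2 had 0.828, 1.46 and 0.996 CPM on HFD against 0.778, 0.650 and 0.513 CPM on ND, and Ccnb2 had 0.376, 0.778 and 1.04 CPM on HFD against 1.99, 1.08 and 1.28 CPM on ND. Of the 28 genes, 1 (3.57%) had an unadjusted p under 0.05, against 6.49% of all genes, and 3 (10.7%) did not overlap, against 23% of all genes. The share without the library that stood apart was 1 of 29 (3.45%), against 17.2% of all genes, and 3 (10.3%) did not overlap, against 22.9% of all genes. The median log2 difference was −0.16 over the cycle genes and 0.02 over all genes.

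In males labelled Cyp2b-null, Ccnd2 had 11, 9.09 and 7.22 CPM on HFD, against 5.08, 6.88 and 4.12 CPM on ND. The groups did not overlap (log2 difference 0.76 ± 0.27, unadjusted edgeR p 0.0138, adjusted p 0.434). In males labelled WT the same gene had 6.4, 7.78 and 7.20 CPM on HFD, against 7.09, 7.90 and 9.74 CPM on ND, and its interaction was 0.97 ± 0.37 (unadjusted edgeR p 0.0226, adjusted p 0.891). Mcm4 had a diet log2 difference of 0.60 ± 0.27 in the label Cyp2b-null, Rrm2 of 1.0 ± 0.48, Mcm5 of 0.67 ± 0.38 and Mcm7 of −0.60 ± 0.32. The Rrm2 and Mcm7 values rest in part on the library that stood apart: Rrm2 had 0.937, 4.35 and 6.21 CPM on ND in the label Cyp2b-null, and without that library the Rrm2 difference was 0.58 ± 0.31 and the Mcm7 difference −0.08 ± 0.21. Without it Ccnd2 was at 0.73 ± 0.27, Mcm4 at 0.58 ± 0.28 and Mcm5 at 0.68 ± 0.39. Of the 28 genes, 3 (10.7%) had an unadjusted p under 0.05, against 11.1% of all genes, and 7 (25%) did not overlap, against 12.1% of all genes. Without that library 2 of 29 (6.9%) had an unadjusted p under 0.05, against 6.46% of all genes, 9 (31%) did not overlap, against 19.9% of all genes, and 0.0859% of all genes passed the adjusted test.

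The male interactions with the smallest p after Ccnd2 were Mcm5 at 1.19 ± 0.54 (unadjusted edgeR p 0.0474), Birc5 at −1.73 ± 0.84, E2f1 at 0.88 ± 0.44, Rrm2 at 1.32 ± 0.69 and Ccna2 at −1.21 ± 0.64. A positive value means that HFD minus ND was larger in the label Cyp2b-null than in the label WT. Mcm5 had 5.12, 4.01 and 2.31 CPM on HFD and 2.41, 1.72 and 3.14 CPM on ND in the label Cyp2b-null, against 2.56, 1.75 and 1.40 CPM on HFD and 2.94, 2.92 and 2.31 CPM on ND in the label WT. Of the 28 genes 2 (7.14%) had an unadjusted p under 0.05, against 4.65% of all genes. Without the library that stood apart 5 of 29 (17.2%) did, against 7.72% of all genes, with Ccnd2 at 0.94 ± 0.36, Mcm5 at 1.20 ± 0.54, Rrm2 at 0.91 ± 0.42 and Cdkn1b at −0.60 ± 0.24, while E2f1 was at 0.91 ± 0.44, Birc5 at −1.08 ± 0.72 and Ccna2 at −0.91 ± 0.63, and 0.00661% of all genes passed the adjusted test. None of these cycle genes passed it.

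**Figure D4:**
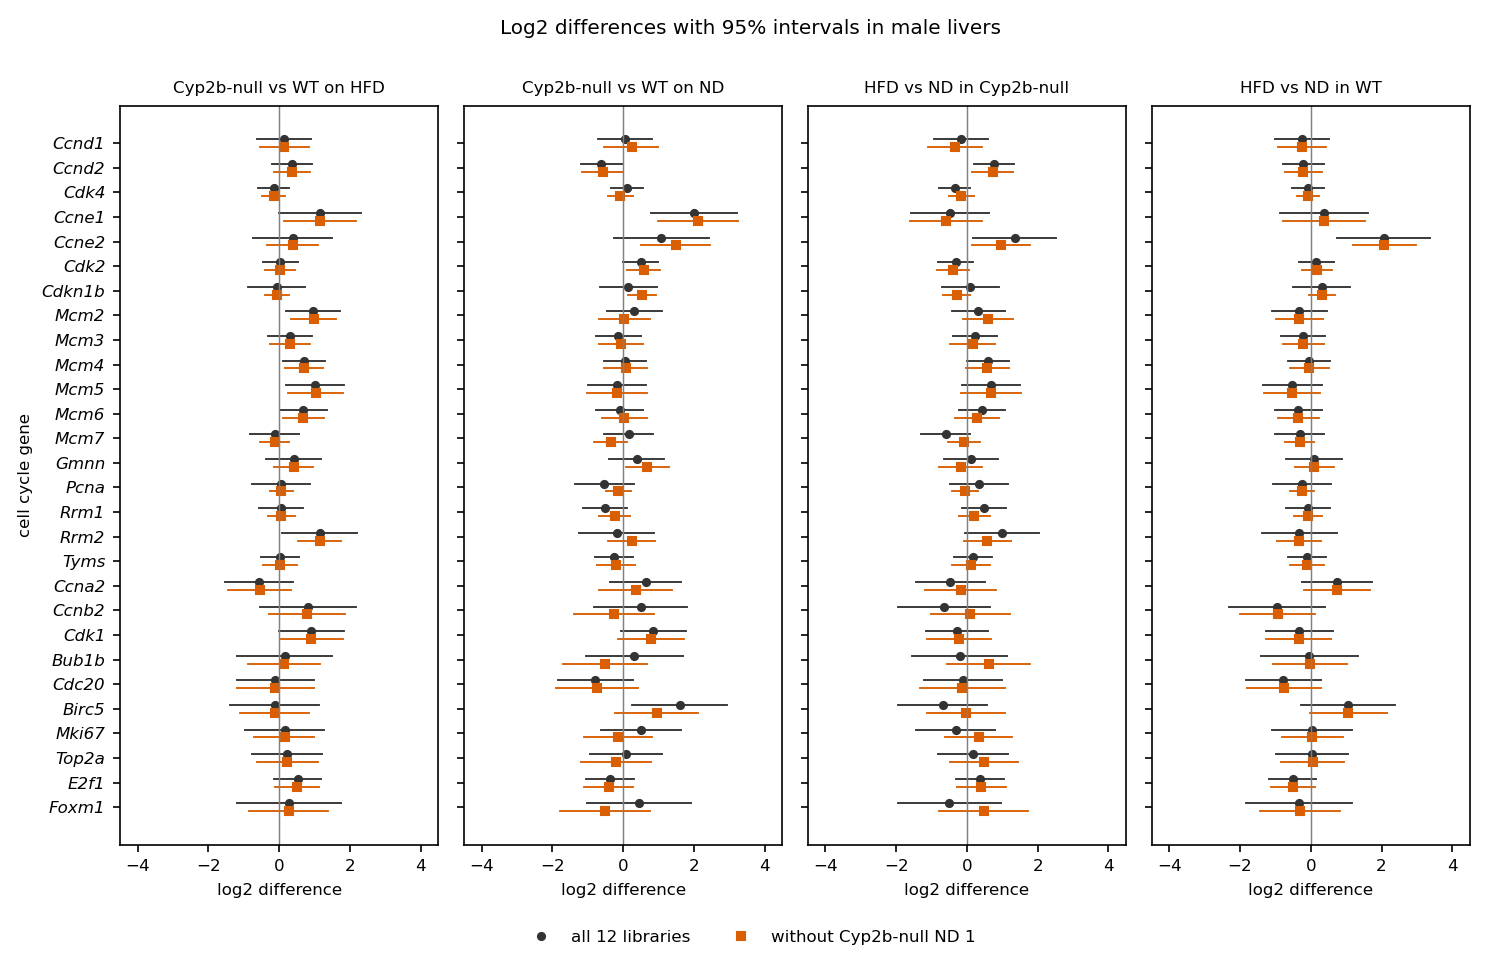
Log2 differences of the cycle genes tested in male livers, with 95% intervals, in 4 panels: label Cyp2b-null against label WT on HFD and on ND, and HFD against ND in each label. Black points use all 12 libraries and orange points leave out the library labelled Cyp2b-null ND 1. Most intervals span 0. With all 12 libraries, those that do not include Ccne1 by label on ND and Ccne2 by diet in the label WT. They also include Mcm2, Mcm4, Mcm5, Mcm6 and Rrm2 by label on HFD.

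The library labelled Cyp2b-null ND 1 was extreme in the cycle genes as well. In it 18 of the 34 genes lay outside the range of the other 11 male libraries, against 2 to 7 genes in each of those. The same count over all genes was not made, so whether cycle genes departed more than other genes in this library is not known. The 8 genes below the range were G1 and S phase genes for the most part: Ccne2, Cdkn1b, Gmnn, Pcna, Rrm1, Rrm2, Ccnb1 and Aurka. Pcna had 4.55 CPM there, against 14.6 to 22.4 CPM in the others, and Cdkn1b had 6.69 CPM, against 13.8 to 26.8 CPM. The 10 genes above the range were Cdk4, Mcm7, Ccna2, Ccnb2, Aurkb, Bub1b, Birc5, Mki67, Top2a and Foxm1, of which most act in mitosis. Of the genes outside the range, Ccnb1 and Aurka had 0 counts in this library and Aurkb had 9, and these were too low to judge in males. Ccna2 was only just outside, at 1.47 CPM from 11 counts, against 0.513 to 1.46 CPM. Mki67 had 5.62 CPM, against 1.05 to 3.74 CPM, and Foxm1, a transcription factor of mitotic genes, had 2.01 CPM, against 0.289 to 0.802 CPM. Its 10 lymphocyte markers, all above 0, summed to 87.8 CPM, against 9.1 to 29.5 CPM, and its hepatocyte markers to 40200 CPM, against 64300 to 139000 CPM. The part of these cells, and of its mitochondrial share, in the cycle gene values was not tested.

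**Figure D5:**
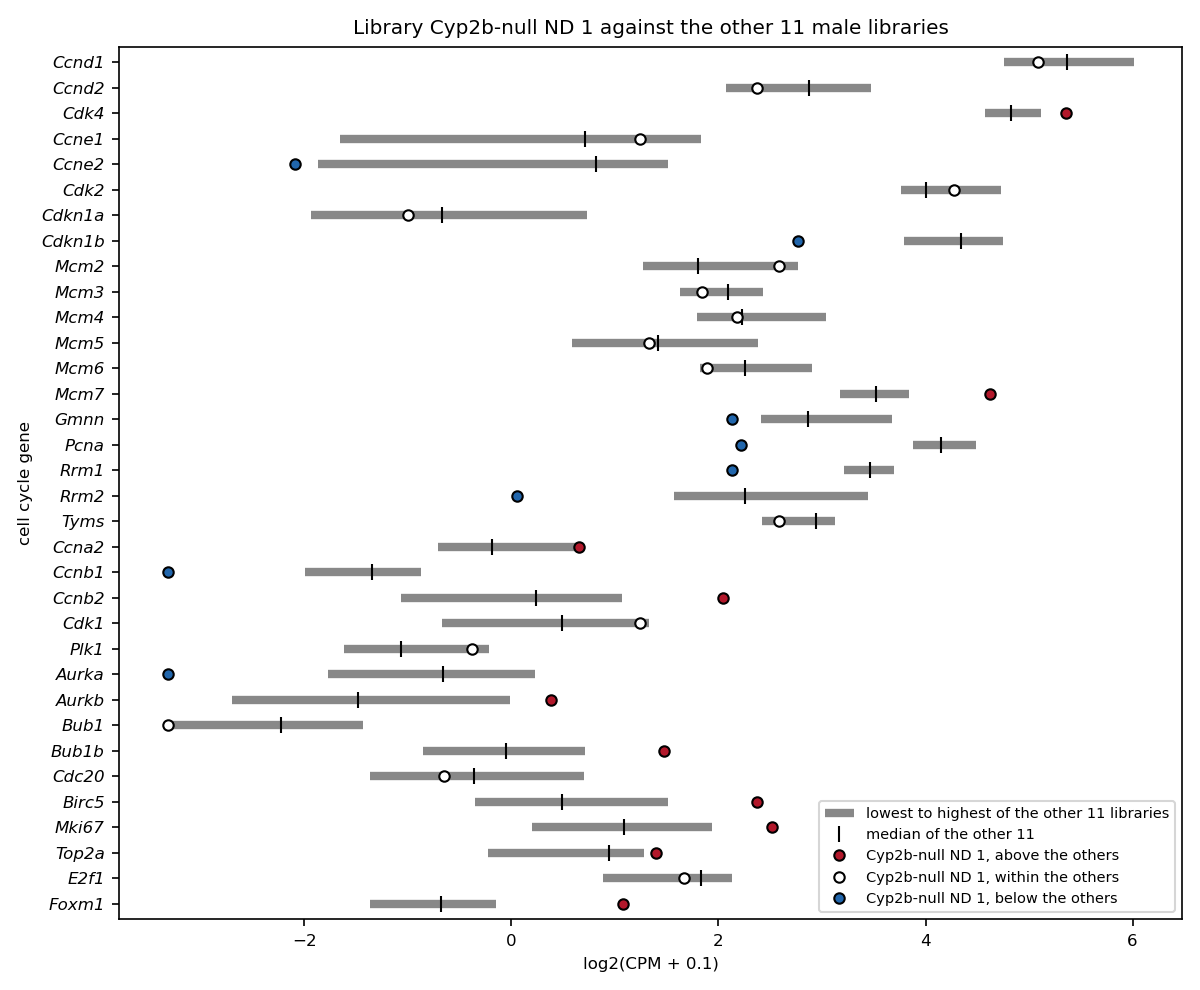
CPM (log axis) of the cycle genes in the male library labelled Cyp2b-null ND 1 (points), with the range and median of the other 11 male libraries (bars and ticks). There 8 genes, among them Pcna and Cdkn1b, lie below the range and 10, among them Mki67 and Foxm1, lie above it.

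Other genes of the cell cycle machinery were read from lists of 17 E2F, pocket protein and DREAM genes, 15 further cyclins, CDKs and inhibitors, 33 genes of the replication origin and fork and 28 genes of mitosis. With all libraries none of their tested genes was called by edgeR in either sex. In HFD males by label, where 2.12% of all genes had an unadjusted p under 0.05, so did 5 of 17 E2F and pocket protein genes, with E2f2 at a log2 difference of 1.29 ± 0.39 (adjusted edgeR p 1), 1 of 29 replication genes, 0 of 12 further cyclins and CDKs and 0 of 15 mitosis genes. The 1 replication gene was Mcm10, lower in the label Cyp2b-null at −0.71 ± 0.28, the opposite sign to Mcm2, Mcm4, Mcm5, Mcm6 and Rrm2. The median log2 difference of that list was 0.05. Without the library that stood apart, where the share of all genes was 5.17%, the counts were 4 of 17, 2 of 29, 0 of 12 and 1 of 18. Mcm10 was then at −0.71 ± 0.21. In ND males by label, where the share of all genes was 18.6%, it was 0 of 17 E2F and pocket protein genes, 4 of 29 replication genes, with Tk1, thymidine kinase, at 1.53 ± 0.40 (adjusted edgeR p 0.185), 2 of 12 further cyclins and CDKs and 2 of 15 mitosis genes. Without that library, with 17.3% of all genes, it was 6 of 17, 3 of 29, 2 of 12 and 1 of 18, so the E2F count moved with that library. In females at most 2 genes of any of these lists were past that line in a comparison. The smallest p there was that of Mcm10 for genotype on ND, at 1.25 ± 0.25 (adjusted edgeR p 0.0695). It was the 1 of 21 replication genes past the line in that comparison, against 6.33% of all genes.

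Wee1, the kinase that holds Cdk1 inactive before mitosis, was the only gene of these 4 lists called in males without the library labelled Cyp2b-null ND 1. It had 6.42, 31.6 and 23.7 CPM in ND males labelled Cyp2b-null, the first of them in that library, against 2.68, 3.57 and 6.15 CPM in ND males labelled WT. The log2 difference was 2.73 ± 0.31 without that library (adjusted edgeR p 0.00783) and 2.32 ± 0.50 with it (adjusted p 0.165). In males labelled WT it had 16, 19.2 and 26.3 CPM on HFD, and the diet difference was 2.31 ± 0.29 without that library (adjusted edgeR p 0.00701) and 2.31 ± 0.50 with it (adjusted p 0.311). Both comparisons share the ND libraries labelled WT, which were the low ones. In females Wee1 had 6.95, 28.3 and 19.4 CPM in Cyp2b-null livers on ND, against 1.85, 1.5 and 3.36 CPM in WT livers on ND (2.97 ± 0.78, adjusted edgeR p 0.29).

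Wee1 is known in mouse liver as a target of the circadian clock, so clock genes are given beside it. In ND females Dbp, a clock output factor, rose to 191, 187 and 234 CPM in Cyp2b-null livers, against 25.9, 44.9 and 23.1 CPM in WT livers (log2 difference 2.71 ± 0.29, adjusted edgeR p 0.000499). Per3, a period gene, rose too (2.58 ± 0.42, adjusted edgeR p 0.0268), and 10 of 17 clock genes had an unadjusted p under 0.05, against 6.33% of all genes. Dbp also rose on HFD in WT females (2.14 ± 0.29, adjusted edgeR p 0.0242). In males without the library labelled Cyp2b-null ND 1, Arntl fell (−2.09 ± 0.42, adjusted edgeR p 0.0416) and Nr1d2 rose (0.94 ± 0.18, adjusted p 0.0288) on HFD in the label WT, the comparison in which Ccne2 and Wee1 were called. With all male libraries 12 of 18 clock genes had an unadjusted p under 0.05 by label on ND, against 18.6% of all genes, and 8 of 18 by diet in the label WT, against 6.49% of all genes, and none was called. Without that library it was 11 of 19 by label on ND, against 17.3% of all genes and with none called, and 10 of 19 by diet, against 17.2% of all genes. The labels used here give no hour of collection, and its part in the Ccne2 and Wee1 values was not tested.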

How the data were processed

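Liver RNA of 24 libraries (3 per group) was analysed from 2 tables, 1 per sex, of raw counts per gene symbol as deposited by the authors. Per the submitters' processing notes, the tools were FastQC, Trimmomatic, GSNAP, Subread and edgeR on GRCm38.p5. For settings and strand use the sources used here give nothing, so overlapping genes can share reads. Groups follow the sample titles. In 6 female libraries another genotype label contradicts the title. The female Cyp2b13 counts followed the titles, at 0 in every library titled as null and 565 to 1138 in those titled WT.

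Counts of duplicated symbols (1801 in males) were summed, and 25 symbols turned into dates, at most 0.16% of a library, were kept in totals only. Each sex was fitted alone over 12 libraries in R 4.3.3 with edgeR 4.0.16 (TMM, filterByExpr by group, robust quasi-likelihood test, Benjamini-Hochberg adjustment over all genes). SE is the log2 difference divided by the root of its F. CPM is the count per 1000000 of the library total times its TMM factor (0.902 to 1.18 in males). The tested genes named are the 6 with the smallest p per comparison, and a tested gene with under 30 counts in each of the 2 groups is named as too low there. The cycle genes, gene lists and tests were chosen with earlier results of these data known. The lists of p53 targets and immediate early genes are given in the closing section. The scripts were tested on simulated data. Every replicate pair differed beyond counting noise (chi-square per degree of freedom 5.84 or more). Same-numbered libraries deviated together in every pair (r over 0.1) only for HFD against ND in WT (r 0.139 to 0.564 in females, 0.11 to 0.127 in males). As alternatives, DESeq2 1.42.0, RLE scaling, a fit of only the groups compared, a fit without the filter, a replicate block, each library left out, the first row of duplicated symbols, and in females a term for the 2 sides of the first principal component were run. The edgeR common biological coefficient of variation was 0.269 in females and 0.34 in males, or 0.219 without the library that stood apart.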

Additional observations from a re-analysis of the deposited data

How the results depend on the processing

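The number of cycle genes called stayed at 0 in all but 2 of 132 alternative fits. DESeq2 called 1, Ccne1, between male labels on ND. Without the library labelled Cyp2b-null ND 1, 1 was called, Ccne2, for HFD against ND in males labelled WT (0 to 1 over the left-out libraries). Among 787 alternative values of the named genes, 1 changed sign: Rrm2 for HFD against ND in WT females was −0.09 without WT HFD 3, against 0.34 (−0.09 to 0.67 over the left-out libraries). Some female values kept their sign but varied widely. Ccnd1 ranged over 0.16 to 0.85 for HFD against ND in Cyp2b-null and over 0.06 to 0.74 for Cyp2b-null against WT on HFD. Mcm2 ranged over 0.03 to 1.27 for HFD against ND in Cyp2b-null. The log2 difference of Ccne1 between male labels on ND ranged over 1.60 to 3.30 and that of Ccne2 for HFD against ND in males labelled WT over 1.66 to 2.40, with adjusted p of 0.0291 to 0.502 and 0.0384 to 1. The replicate block changed no call and left 0 cycle genes called in every comparison.

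Counts over all genes were less steady. Genotype on ND in females called 15 genes, but 121 with no filter, 70 with DESeq2, 43 with the principal component term and 8 with the block. The same comparison in males called 2 genes, but 369 with DESeq2 and 1 to 724 with single libraries left out. At the female depth most mitotic genes could not be judged, and intervals cover the spread between libraries only.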

Other observations

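Genes that commonly move with cell cycle entry or arrest were read from 2 further lists. Of 18 p53 target genes, 14 were tested in females and 15 in males, and none was called by edgeR in any comparison. The most at an unadjusted p under 0.05 was 4 of 15, for HFD against ND in males labelled Cyp2b-null, against 11.1% of all genes, and 1 of 15 without the library labelled Cyp2b-null ND 1, against 6.46% of all genes. Of 20 immediate early genes, which are switched on by growth signals and by tissue handling, 16 were tested in females, and none was called. In ND females 5 of the 16 had an unadjusted p under 0.05 for Cyp2b-null against WT, against 6.33% of all genes, with 14 of 16 higher in Cyp2b-null and a median log2 difference of 1.51, against −0.02 over all genes tested. In males by label the same comparison gave 1 of 17 at that p, against 18.6% of all genes, with 7 of 17 higher and a median of −0.11. Without the library labelled Cyp2b-null ND 1 it was 1 of 17, against 17.3% of all genes, with 1 of 17 higher and a median of −0.98, the opposite sign to females; the difference between the sexes was not tested.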
